A study of Homo sapiens with 8 samples.

Results

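The DNA replication and S-phase genes described here are 44 genes of the replication machinery and its immediate regulators, named by symbol for their textbook roles, with earlier results of these data known, and matched by Ensembl gene identifier to the 64252 genes counted in both tables. Gene positions below are on build GRCh38. The genes fall into 6 classes by role: 10 genes of origin licensing, 6 of origin firing, 13 of the polymerases, sliding clamp, flap removal and ligation, 4 of nucleotide supply, 5 of the E2F and cyclin E group, and 6 of chromatin assembly and the replication checkpoint. The study sequenced RNA from 6T-CEM and J.gamma1, both of them established human cell lines derived from T-cell acute lymphoblastic leukemia (T-ALL), to ask which genes depend on LDB1, a co-factor that bridges DNA-bound transcription factors. In each line a control shRNA (sh-NC) was compared with a short hairpin RNA against LDB1 (sh-LDB1), which gave 4 groups of 2 libraries and 8 libraries in all. Per the methods of the study, the hairpins were carried by the lentiviral pLKO.1 vector, and infected cells were selected with puromycin and collected a few days later, so the controls had been through infection and selection too. The sources used here do not say which LDB1 hairpin was sequenced, and they do not say whether the 2 libraries of a group came from separate cultures, so the p-values measure only the spread between these libraries.

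Replication is prepared in G1, when the origin recognition complex, CDC6 and CDT1 load the MCM2 to MCM7 helicase onto DNA as an inactive ring. At the start of S phase, CDC45 and the GINS complex join that ring to form the active helicase, and DNA polymerases alpha, delta and epsilon, the PCNA clamp and its RFC loader copy the strands behind it. Transcription of many of these genes peaks at the G1 to S transition under E2F factors, whose activity cyclin E and its kinase raise, so in proliferating leukemia cells their RNA is often read as a marker of S-phase entry.

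LDB1 itself was lower in every sh-LDB1 library. In 6T-CEM it stood at 102 and 106 CPM (each count scaled to its library's total, adjusted by a TMM factor) in sh-NC and at 35.2 and 33.5 CPM in sh-LDB1, or 33.1% of control. In J.gamma1 it stood at 63.2 and 61.4 CPM in sh-NC and at 35.0 and 32.3 CPM in sh-LDB1, or 54.0% of control. The log2 fold changes, given with SE, were -1.60 ± 0.071 and -0.89 ± 0.075 (edgeR adjusted p = 1.02e-09 and 3.68e-06), and the fall was smaller in J.gamma1, by 0.70 on the log2 scale (adjusted p = 2.37e-04). Total counts ran from 26160492 to 30604977 per library, mitochondrial transcripts made up 2.98% to 4.59% of counts, and replicates correlated at 0.994 to 0.995 on log2 CPM. Of 8 T-lineage markers, CD3D, CD3E, CD3G, CD247, CD7, CD5 and LCK had 974 counts or more in every library, while CD2 had only 9 to 14 counts per library in 6T-CEM. Among the markers of other blood lineages reported here, HBB had no count in any library, and CD79A, at 608 to 2224 counts, was the one above 100.

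The promoters of 39 of the 44 genes were in the RefSeq table used here, taken as 250 bases before to 50 bases after the start site on build GRCh38.p14, and those of MCM4, MCM5, GINS4, E2F8 and CCNE2 were not in it. They were searched on both strands for the 4 spellings of the E2F consensus, TTTGGCGC, TTTCCCGC, TTTGCCGC and TTTCGCGC, of which the first and the last can overlap a match read on the other strand. One of them occurred in 22 of the 39 promoters (56.4%), against 1164 of 35116 promoters in the whole table (3.31%). The members' promoters were also richer in G and C, at a median of 66% against 58.7% over the table. The search was made after the changes below were known. By change after knockdown, the letters were present in 13 of 19 genes lower in both lines (68.4%), in 4 of 13 lower in J.gamma1 but not in 6T-CEM (30.8%) and in 5 of 7 that were lower in neither (71.4%), shares that were not tested against each other. A match describes the sequence and does not show that a factor binds there.

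The windows below show such matches in genes of each kind, with the match in capitals, 10 bases on each side and the gene's own strand read 5′ to 3′. One match is shown per gene, although MCM2 and E2F1 held 2 and MCM6 held 4, and the MCM2 and MCM6 windows take in a second match that overlaps the first. The MCM2 match shown was at chr3:127598413-127598420 (forward strand, position 3), the MCM6 match shown was at chr2:135876588-135876595 (reverse strand, position -152), the E2F1 match shown was at chr20:33686398-33686405 (reverse strand, position -20), the RFC3 match was at chr13:33818094-33818101 (forward strand, position -55) and the CLSPN match was at chr1:35769976-35769983 (reverse strand, position -5), and all 5 genes were lower in both lines after knockdown. The CDT1 match was at chr16:88803754-88803761 (forward strand, position -35), and CDT1 was lower in J.gamma1 but not called in 6T-CEM. The GINS3 match was at chr16:58392466-58392473 (forward strand, position -5) and the POLE match was at chr12:132687353-132687360 (reverse strand, position -18), and both genes were higher in J.gamma1. Positions count from the first transcribed base as 1, with negative positions before it. The strand given is that of the gene. The capitals of RFC3, CLSPN, CDT1, GINS3 and POLE are the reverse complement of a listed spelling.
MCM2: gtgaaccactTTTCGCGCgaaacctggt
MCM6: gggctttgcaTTTGGCGCgaaatccctt
E2F1: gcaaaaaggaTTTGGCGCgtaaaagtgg
RFC3: tttggagctcGCGGGAAAacttgtctct
CLSPN: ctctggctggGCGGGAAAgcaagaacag
CDT1: cagggcgcccGCGGGAAAtttggcggga
GINS3: gtccccgggcGCGGGAAAcgagtttcaa
POLE: gggtgggagcGCGCCAAAtttctcccct

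After LDB1 knockdown the replication genes were mostly lower, more widely and by more in J.gamma1 than in 6T-CEM. All 44 passed the filter on low counts in every comparison, with between 188 counts (CCNE1 in a 6T-CEM sh-LDB1 library) and 27695 counts (TYMS in a J.gamma1 sh-NC library). In 6T-CEM 22 members fell, where 16.2% of the 16059 genes tested were lower, 4 rose (GINS1, GINS3, TK1 and E2F8), where 15.1% of genes were higher, and 18 did not pass the test. In J.gamma1 37 fell, where 26.5% of the 17215 genes tested were lower, 3 rose (GINS3, POLA1 and POLE), where 25% of genes were higher, and 4 did not pass. The median log2 fold change of the members was -0.16 in 6T-CEM (range -1.15 to 0.50) and -0.53 in J.gamma1 (range -1.25 to 0.44), against a median near 0 over all genes tested in each line. A call here means an adjusted p under 0.05 in edgeR's quasi-likelihood test, adjusted over every gene tested in that line. In RNA from bulk cultures, fewer cells in S phase and less RNA of these genes per cell cannot be told apart.

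Changes past 1 on the log2 scale were few. CCNE1 alone fell that far in 6T-CEM, where 2.39% of genes were lower and 2.74% higher by that much. CDC45, CHAF1B, CCNE2, CLSPN and E2F1 did so in J.gamma1, where the shares were 7.19% and 6.67%. No member rose past 1 in either line. In 6T-CEM the knockdown pair was entirely under the control pair for 25 members and entirely over it for 7, where 32.7% and 32.4% of genes did so. In J.gamma1 these counts were 38 and 5, where 38.2% and 37.6% of genes did so, and POLD1 was the one member whose groups overlapped. Summed over the 44 genes, the level was 8943 and 8735 CPM in the 6T-CEM control libraries and 7827 and 7975 CPM after knockdown. In J.gamma1 the sum was 7894 and 7848 CPM in controls and 5672 and 5742 CPM after knockdown, so the groups lay apart in both lines and the gap was wider in J.gamma1. Every 6T-CEM library left out lowered the number of members called lower, to 14 to 20. It was 14 lower and 1 higher without sh-NC replicate 1, where the genes called lower over the whole table went from 2598 to 1662, and the higher count was also 1 without sh-NC replicate 2 or sh-LDB1 replicate 2.

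**Figure D1:**
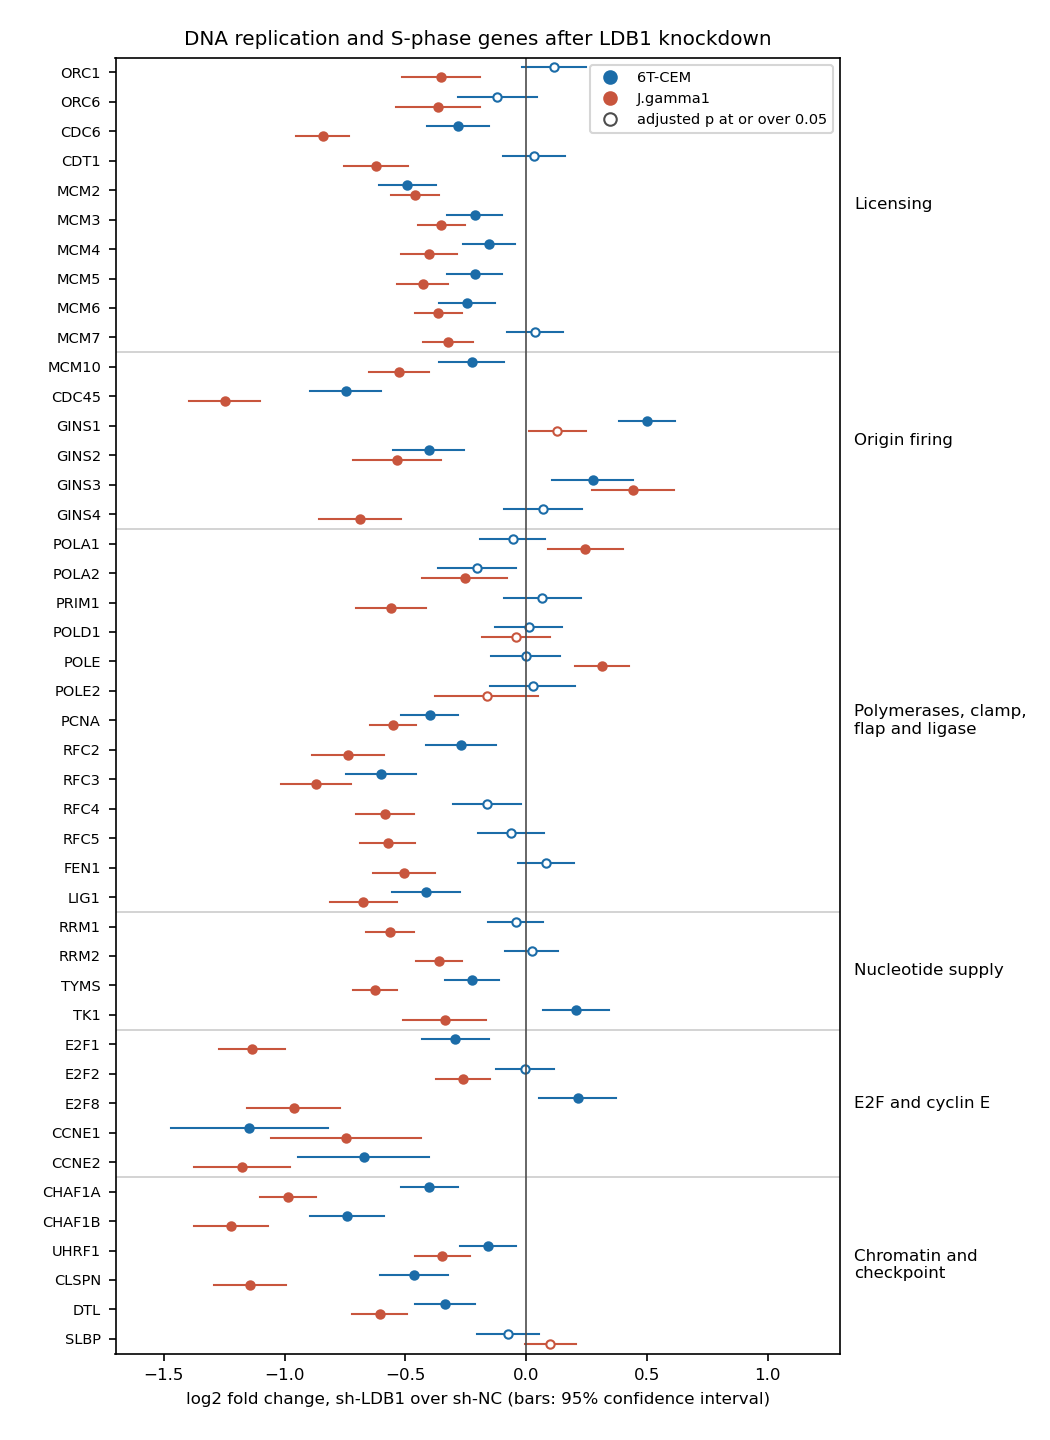
Log2 fold change of each of the 44 genes (rows, grouped by class) after LDB1 knockdown in 6T-CEM (blue) and J.gamma1 (red), with 95% confidence intervals from the fit of 2 against 2 libraries; filled points have an adjusted p under 0.05. Most red points lie left of 0 and left of the blue point of the same gene, and GINS3 lies right of 0 in both lines.

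The 10 licensing genes chosen here all fell in J.gamma1, and a part of them fell in 6T-CEM. All 10 were lower in J.gamma1 (-0.84 to -0.32), and 6 of 10 were lower in 6T-CEM, with 4 not called (CDT1, MCM7, ORC1 and ORC6). The MCM2 to MCM7 subunits of the helicase moved within a narrow band in J.gamma1, from -0.46 for MCM2 to -0.32 for MCM7. In 6T-CEM they ranged from -0.49 for MCM2 to 0.04 for MCM7, the latter with a 95% interval of -0.08 to 0.16.

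MCM2 stood at 435 and 438 CPM in 6T-CEM controls and at 297 and 323 CPM after knockdown (-0.49 ± 0.055, adjusted p = 9.35e-06). In J.gamma1 it stood at 280.3 and 288 CPM and 206 and 207 CPM (-0.46 ± 0.045, adjusted p = 1.13e-05). The groups were apart in both lines, and the difference between the lines was 0.03 (95% interval -0.11 to 0.18, adjusted p = 0.810). CDC6, the loader that recruits the helicase together with CDT1, stood at 165 and 155 CPM and 129 and 134 CPM in 6T-CEM (-0.28 ± 0.060, adjusted p = 0.00224). In J.gamma1 CDC6 was at 154 and 156 CPM in controls and at 86.9 and 86.2 CPM after knockdown (-0.84 ± 0.050, adjusted p = 2.75e-07). Its groups lay apart in both lines, and in J.gamma1 knockdown left 55.8% of the control level.

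CDT1 separated the lines. In 6T-CEM it was at 108 and 109.9 CPM in controls and 113 and 109.8 CPM after knockdown, groups that overlapped (0.03 ± 0.060, adjusted p = 0.726). In J.gamma1 it was at 147 and 140.1 CPM and 88.9 and 97.5 CPM (-0.62 ± 0.060, adjusted p = 9.40e-06), with no overlap. ORC1 and ORC6, subunits of the origin recognition complex, fell in J.gamma1 by 0.35 and 0.37 on the log2 scale, while their 6T-CEM values were 0.12 and -0.12 without a call. Among the smaller 6T-CEM calls, MCM4 lost its call whichever of the 4 libraries was left out (adjusted p = 0.0870 to 0.155) and MCM3 without sh-NC replicate 1 (0.09555) or sh-LDB1 replicate 1 (0.0549). MCM5 lost it without sh-NC replicate 2 (0.0709) and MCM6 without sh-NC replicate 1 (0.0515). MCM4 also missed the threshold with scaling to total counts (0.0860), with upper quartile scaling (0.07925) and with no filter on low counts (0.0565). MCM7 shares 392 exonic bases with AP4M1 on the opposite strand, and the sources used here do not say whether counting used strand.

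In the firing class the factors that activate the helicase did not move together. CDC45 fell steeply in both lines, MCM10 and GINS2 fell in both, GINS3 rose in both, GINS1 rose in 6T-CEM and GINS4 fell in J.gamma1. The class counted 3 lower and 2 higher of 6 in 6T-CEM, and 4 lower and 1 higher in J.gamma1. CDC45 (ENSG00000093009, chr22:19479457-19520612, forward strand), the helicase partner whose loading marks a fired origin, was at 92.2 and 87.5 CPM in 6T-CEM controls and 52.4 and 54.8 CPM after knockdown (-0.75 ± 0.069, adjusted p = 1.42e-06). The J.gamma1 levels were 92.5 and 97.5 CPM in controls and 41.0 and 39.1 CPM after knockdown (-1.25 ± 0.067, adjusted p = 1.22e-07). It had the largest fall of any member in J.gamma1, to 42.1% of control, and its groups lay well apart in both lines.

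The 4 GINS genes encode subunits of a single complex, and their RNA went in different directions. GINS1 (ENSG00000101003, chr20:25391008-25452700, forward strand) was at 148 and 149 CPM in 6T-CEM controls and rose to 212 and 209 CPM (0.50 ± 0.054, adjusted p = 6.21e-06), the largest rise of any member in that line. In J.gamma1 it was at 125 and 124 CPM and 141 and 132 CPM (0.13 ± 0.053, adjusted p = 0.0604), not a call, although it was one with upper quartile scaling (0.0156), with total counts (0.0324), with a stricter filter (0.0343), with a replicate block (0.0482) and without sh-LDB1 replicate 2 (0.0438). GINS4 was at 45.1 and 45.8 CPM and 47.0 and 48.5 CPM in 6T-CEM (0.07 ± 0.075, adjusted p = 0.525). The matching J.gamma1 values were 50.5 and 50.4 CPM in controls and 32.6 and 30.1 CPM after knockdown (-0.69 ± 0.077, adjusted p = 2.76e-05), to 62.1% of control.

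GINS3 rose by 0.28 ± 0.078 in 6T-CEM and by 0.44 ± 0.076 in J.gamma1, and was the only member called higher in both lines. Its 6T-CEM call was lost without sh-NC replicate 1, sh-NC replicate 2 or sh-LDB1 replicate 2 (adjusted p = 0.0625 to 0.098). GINS2 fell by 0.40 and 0.53 on the log2 scale in 6T-CEM and J.gamma1. MCM10, which helps the assembled helicase to start, fell by 0.23 and 0.53, and its 6T-CEM call was lost without sh-NC replicate 1, sh-NC replicate 2 or sh-LDB1 replicate 1 (0.0728 to 0.1125). Exons of GINS1 share 259 bases with NINL on the other strand, and 558 exonic bases of GINS3 lie opposite a long noncoding RNA gene with 9 to 12 counts on average per group.

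**Figure D2:**
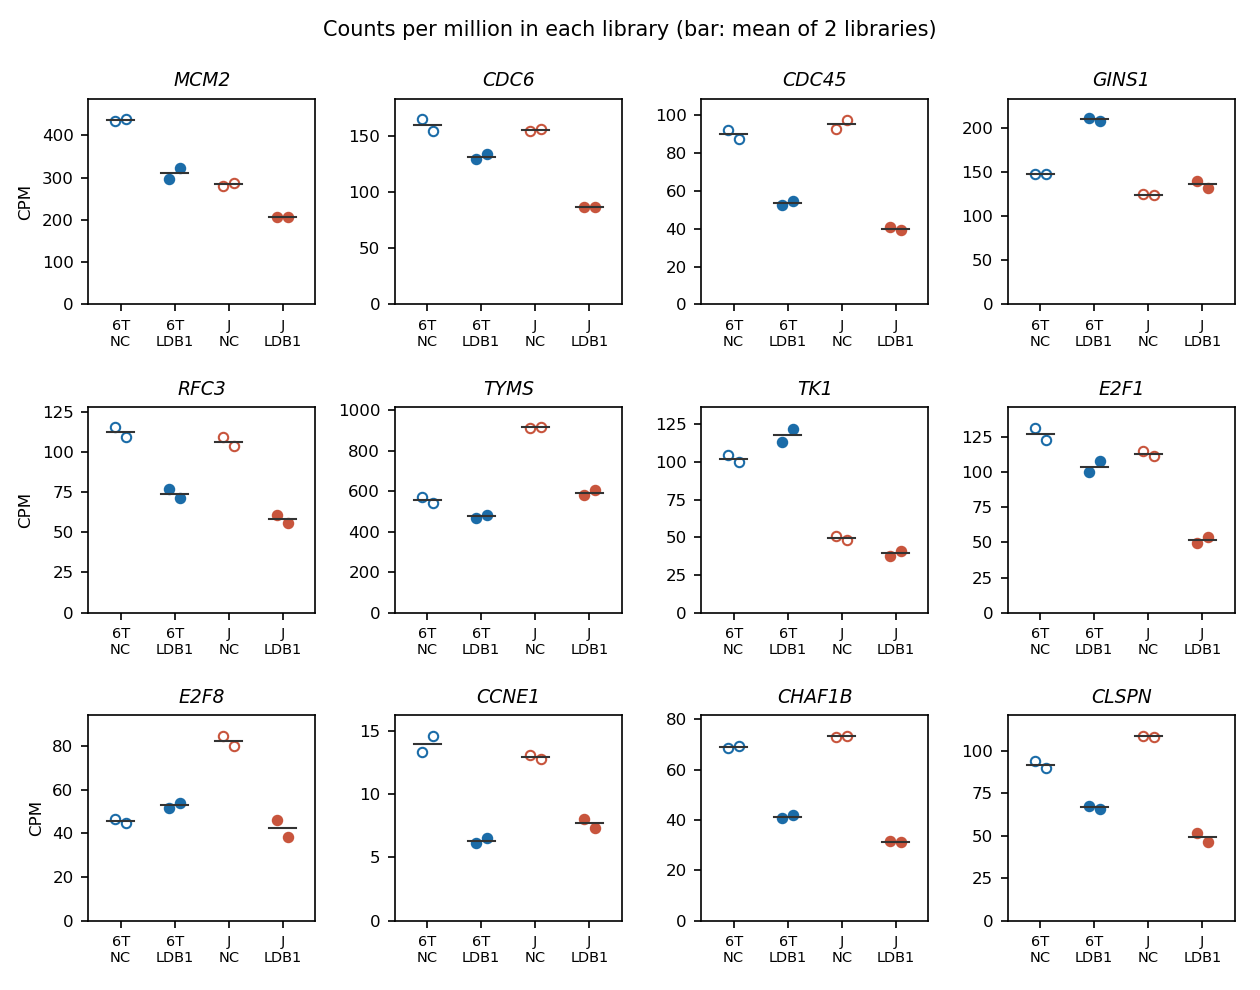
CPM of 12 genes in each of the 8 libraries, with open points for sh-NC, filled points for sh-LDB1, blue for 6T-CEM, red for J.gamma1 and a bar at the mean of 2 libraries, scaled within each line; every axis starts at 0. CDC45, CCNE1, CHAF1B and CLSPN were lower after knockdown in both lines, while GINS1 rose in 6T-CEM and TK1 and E2F8 moved in opposite directions in the 2 lines.

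Among the polymerase, clamp and ligation genes PCNA and loader subunits fell in both lines, and none of the catalytic subunits POLA1, POLD1 and POLE was called lower in either. In 6T-CEM 4 of 13 fell (RFC3, LIG1, PCNA and RFC2) and none of the others was called. In J.gamma1 9 of 13 fell, POLA1 and POLE rose, and POLD1 and POLE2 were not called. RFC3, a clamp loader subunit, was at 115 and 109 CPM in 6T-CEM controls and at 77.0 and 71.0 CPM after knockdown (-0.60 ± 0.067, adjusted p = 8.89e-06). In J.gamma1 it was at 109 and 103 CPM and 60.9 and 55.6 CPM (-0.87 ± 0.066, adjusted p = 1.60e-06), the deepest fall of the class in each line. The difference of -0.27 between the lines did not pass the test (95% interval -0.48 to -0.06, adjusted p = 0.0565), but did with a replicate block (0.0263).

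RFC2, another loader subunit, was at 81.9 and 81.3 CPM and 65.1 and 70.4 CPM in 6T-CEM (-0.27 ± 0.069, adjusted p = 0.00772). In J.gamma1 it went from 85.3 and 93.5 CPM to 54.0 and 53.4 CPM (-0.74 ± 0.067, adjusted p = 6.59e-06). Groups were apart in both lines, but the 6T-CEM call was lost without sh-NC replicate 1, sh-NC replicate 2 or sh-LDB1 replicate 1 (adjusted p = 0.0520 to 0.0730). LIG1, the ligase that seals Okazaki fragments, was at 139.8 and 132 CPM and 97.2 and 106 CPM in 6T-CEM (-0.42 ± 0.065, adjusted p = 2.17e-04). In J.gamma1 LIG1 was at 149 and 135 CPM and 85.7 and 91.8 CPM (-0.67 ± 0.063, adjusted p = 7.80e-06), again without overlap. RFC4 and RFC5 fell in J.gamma1 by 0.58 and 0.57 on the log2 scale, against uncalled values of -0.16 and -0.06 in 6T-CEM. PCNA, the sliding clamp, fell by 0.40 in 6T-CEM and 0.55 in J.gamma1. FEN1, the flap nuclease, fell by 0.51 in J.gamma1 and had 0.08 without a call in 6T-CEM. It shares 49 exonic bases, 2.23% of its exons, with FADS2 on the same strand, so part of its count may belong to FADS2. Mean counts of FADS2 were 16830.5 and 12526.5 in 6T-CEM control and knockdown cells, and 21787 and 9828.5 in J.gamma1.

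Polymerase alpha and its primase were split within J.gamma1. POLA1, the catalytic subunit, rose by 0.24 ± 0.070 (adjusted p = 0.0134), while its partner POLA2 fell by 0.25 on the log2 scale. Both calls depended on which libraries were kept: POLA1 was lost without sh-NC replicate 1 (0.0753) or sh-LDB1 replicate 1 (0.0761), and POLA2 without sh-NC replicate 2 (0.118) or sh-LDB1 replicate 2 (0.136), with upper quartile scaling (0.0560) and with no filter on low counts (0.0517). PRIM1, the small primase subunit, was at 72.5 and 64.9 CPM and 69.8 and 74.1 CPM in 6T-CEM, where groups overlapped (0.07 ± 0.074, adjusted p = 0.544). In J.gamma1 it fell from 77.6 and 78.2 CPM to 54.3 and 51.4 CPM (-0.56 ± 0.065, adjusted p = 3.74e-05). PRIM1 shares 139 exonic bases with NACA on the same strand, a gene with mean counts of 20574.5 to 23812.5 per group, so part of its count may belong to NACA.

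POLE (ENSG00000177084, chr12:132623753-132687376, reverse strand), the catalytic subunit of polymerase epsilon, rose in J.gamma1 by 0.31 ± 0.051 (adjusted p = 4.16e-04) and stood at 99.96% of control in 6T-CEM, where its groups overlapped. POLE2, its partner, had 0.03 ± 0.081 and -0.16 ± 0.097 in the 2 lines without a call, and was called lower in J.gamma1 without sh-NC replicate 1 (0.04385). POLD1, the catalytic subunit of polymerase delta, had 0.01 ± 0.065 with a 95% interval of -0.13 to 0.15 in 6T-CEM and -0.04 ± 0.063 with an interval of -0.18 to 0.10 in J.gamma1.

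All 4 nucleotide supply genes fell in J.gamma1, and in 6T-CEM they were divided. TYMS, thymidylate synthase, was at 569 and 541 CPM in 6T-CEM controls and at 468 and 482 CPM after knockdown (-0.22 ± 0.052, adjusted p = 0.00428, or 0.0617 without sh-NC replicate 1). In J.gamma1 it fell from 912 and 918 CPM to 582 and 605 CPM (-0.63 ± 0.042, adjusted p = 6.59e-07). The groups did not overlap in either line. RRM1, the large subunit of ribonucleotide reductase, had overlapping groups in 6T-CEM, at 348 and 366 CPM and 339 and 354 CPM (-0.04 ± 0.053, adjusted p = 0.598). In J.gamma1 RRM1 fell from 387 and 388 CPM to 257 and 268 CPM (-0.56 ± 0.045, adjusted p = 2.32e-06). The small subunit RRM2 fell by 0.36 on the log2 scale in J.gamma1 and had 0.02 without a call in 6T-CEM.

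TK1, the thymidine kinase of the salvage route, moved in opposite directions. It rose in 6T-CEM from 104 and 99.98 CPM to 114 and 122 CPM (0.21 ± 0.064, adjusted p = 0.0231) and fell in J.gamma1 from 51.0 and 48.1 CPM to 37.6 and 40.8 CPM (-0.34 ± 0.077, adjusted p = 0.00391). The 6T-CEM call was lost without sh-NC replicate 1, sh-NC replicate 2 or sh-LDB1 replicate 2 (adjusted p = 0.0603 to 0.168) and with no filter on low counts (0.0722). TYMS shares 967 exonic bases, 39.9% of its exons, with ENOSF1 on the opposite strand, a gene that went from 1142.5 to 1702.5 mean counts in J.gamma1.

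The E2F and cyclin E genes held both the largest fall in 6T-CEM and the largest difference between the lines. In 6T-CEM CCNE1, CCNE2 and E2F1 fell, E2F8 rose and E2F2 was not called. In J.gamma1 all 5 fell. CCNE1 (ENSG00000105173, chr19:29811991-29824312, forward strand), cyclin E1, was at 13.4 and 14.6 CPM in 6T-CEM controls and at 6.13 and 6.50 CPM after knockdown (-1.15 ± 0.15, adjusted p = 4.59e-05). In J.gamma1 the levels were 13.1 and 12.8 CPM and 8.06 and 7.34 CPM (-0.75 ± 0.14, adjusted p = 0.00112). CCNE1 had the fewest counts and the widest intervals of the 44 genes, and its difference between the lines was 0.40 (95% interval -0.03 to 0.83, adjusted p = 0.176).

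CCNE2, cyclin E2, was at 52.1 and 54.9 CPM and 38.0 and 29.1 CPM in 6T-CEM (-0.67 ± 0.12, adjusted p = 0.00253, or 0.0573 without sh-NC replicate 2). In J.gamma1 it was at 69.9 and 59.7 CPM and 29.5 and 27.8 CPM (-1.18 ± 0.090, adjusted p = 1.85e-06). The knockdown levels were under the control levels in each line, and those of 6T-CEM stood apart from each other. CCNE2 shares 1629 exonic bases, 37% of its exons, with INTS8 on the opposite strand, so its counts are uncertain where strand was not used. INTS8 had mean counts of 1300 and 1479.5 in 6T-CEM control and knockdown cells, and of 2759.5 and 2176 in J.gamma1.

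E2F1 (ENSG00000101412, chr20:33675477-33686385, reverse strand), an activator of the G1 to S genes, was at 132 and 123 CPM and 99.93 and 108 CPM in 6T-CEM (-0.29 ± 0.065, adjusted p = 0.00310, or 0.0572 without sh-NC replicate 1). In J.gamma1 it went from 115 and 112 CPM to 49.7 and 53.7 CPM (-1.13 ± 0.062, adjusted p = 1.42e-07), or 45.6% of control. E2F8 (ENSG00000129173, chr11:19224063-19241620, reverse strand), an atypical E2F that represses such genes, rose in 6T-CEM from 46.5 and 44.7 CPM to 51.8 and 53.9 CPM (0.21 ± 0.075, adjusted p = 0.0417). In J.gamma1 it fell from 84.9 and 80.0 CPM to 46.1 and 38.6 CPM (-0.96 ± 0.087, adjusted p = 8.24e-06). Its groups lay apart in both lines, but the 6T-CEM rise was no longer called when any 1 of the 4 libraries was left out (adjusted p = 0.0771 to 0.187), in DESeq2 (0.104) or in a fit to all 8 libraries (0.0832). E2F2, another activator, fell by 0.26 on the log2 scale in J.gamma1 and had -0.01 ± 0.056 in 6T-CEM.

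Chromatin assembly and checkpoint genes fell in both lines with 1 exception. CHAF1A, CHAF1B, CLSPN, DTL and UHRF1 were lower in each, and SLBP, which binds the stem-loop of histone mRNA, had -0.07 ± 0.060 in 6T-CEM and 0.10 ± 0.048 in J.gamma1 without a call. SLBP was called higher in J.gamma1 with upper quartile scaling (0.02305) and with total counts (0.0499). CHAF1B (ENSG00000159259, chr21:36385392-36419015, forward strand), a subunit of the CAF-1 chaperone that loads histones behind the fork, was at 68.7 and 69.6 CPM in 6T-CEM controls and at 40.9 and 41.9 CPM after knockdown (-0.74 ± 0.072, adjusted p = 2.26e-06). J.gamma1 libraries had 72.9 and 73.5 CPM in controls and 31.5 and 31.3 CPM after knockdown (-1.22 ± 0.069, adjusted p = 1.81e-07). Its groups were clear of each other in both lines, and CHAF1A, the large subunit of the same chaperone, fell by 0.40 and 0.99 on the log2 scale.

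CLSPN (ENSG00000092853, chr1:35720218-35769978, reverse strand), the claspin adaptor of the replication checkpoint, was at 94.0 and 89.9 CPM and 67.5 and 65.9 CPM in 6T-CEM (-0.46 ± 0.066, adjusted p = 8.64e-05). In J.gamma1 it was at 109 and 108 CPM and 51.9 and 46.4 CPM (-1.14 ± 0.067, adjusted p = 2.51e-07), or 45.3% of control. DTL, which directs the degradation of CDT1, fell by 0.33 and 0.61 on the log2 scale, and UHRF1, which carries DNA methylation to the new strand, by 0.16 and 0.35. The UHRF1 call in 6T-CEM was lost with total counts (0.124), with upper quartile scaling (0.08985), with no filter (0.0927) and without sh-NC replicate 1, sh-NC replicate 2 or sh-LDB1 replicate 2 (0.1205 to 0.247). CHAF1B shares 89 exonic bases with MORC3 on the same strand.

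Of the 44 genes, 22 (50%) fell in both lines, against 10.5% of the 14902 genes tested in both. Every member that fell in 6T-CEM also fell in J.gamma1 (22 of 22), as did 62.8% of all genes lower in 6T-CEM. Taken from the other side, 59.5% of the members lower in J.gamma1 were also lower in 6T-CEM, against 38.6% of all genes. The 22 included MCM2 to MCM6, CDC6, CDC45, PCNA, RFC2, RFC3, LIG1, TYMS, E2F1 and both cyclin E genes. The other 15 that fell in J.gamma1 comprised 13 without a call in 6T-CEM and the pair TK1 and E2F8, which rose there.

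The difference between the lines was tested as the interaction of cell line and hairpin in all 8 libraries. The log2 fold change was lower in J.gamma1 than in 6T-CEM for 26 members, where 12.4% of the 18552 genes tested had a lower one, and higher for 2 (POLA1 and POLE), where 12% of genes had a higher one. Over the 44 members the median difference was -0.33. Among the 13 genes lower in J.gamma1 without a call in 6T-CEM, the difference passed the test for 11, the exceptions being ORC6 and POLA2. Among the 22 genes lower in both lines it passed for 12, so these fell by more in J.gamma1, and for the other 10, MCM2, MCM3, MCM6, PCNA, RFC3, LIG1, GINS2, UHRF1 and both cyclin E genes, a difference was not called.

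E2F8 had the largest difference, at -1.18 (95% interval -1.43 to -0.92, adjusted p = 2.65e-05). E2F1 followed at -0.84, then GINS4 at -0.76, CLSPN at -0.68, CDT1 at -0.66 and PRIM1 at -0.63 (adjusted p = 4.05e-05 to 5.98e-04). E2F8, GINS4, CDT1 and PRIM1 had positive values in 6T-CEM and fell in J.gamma1, whereas E2F1 and CLSPN fell in both. LDB1 itself had fallen less in J.gamma1, so the larger changes of these genes came in the line where LDB1 fell less. LDB1 was already lower in J.gamma1 controls (log2 ratio -0.87, edgeR adjusted p = 1.58e-07). The mean level left after knockdown was 34.3 CPM in 6T-CEM and 33.6 CPM in J.gamma1. Each was scaled within its line, so these means are not on a common scale and do not show equal levels. Several smaller differences lost their call when single libraries were left out. POLA1 was not called without 6T-CEM sh-NC replicate 2, 6T-CEM sh-LDB1 replicate 1, J.gamma1 sh-NC replicate 1 or J.gamma1 sh-LDB1 replicate 1, with a difference of 0.26 to 0.28 against 0.30 with all (adjusted p = 0.0657 to 0.0867). POLE was not called without 6T-CEM sh-NC replicate 2, 6T-CEM sh-LDB1 replicate 2 or any 1 J.gamma1 library other than sh-LDB1 replicate 2, with 0.22 to 0.32 against 0.31 (adjusted p = 0.0558 to 0.0798). MCM4, MCM5, MCM10, DTL and E2F2 each lost their call without 3 or more of the 8 libraries (0.0506 to 0.104), and leaving out any 1 library cost at least 1 of them its call. MCM5 also lost its call with upper quartile scaling (0.0593). The differences of CCNE2, UHRF1, RFC3 and LIG1 were not called with all libraries (adjusted p = 0.0551 to 0.0866). CCNE2 was called lower in DESeq2 (0.0208), with a replicate block (0.0483), with RLE scaling (0.0494), with the stricter filter (0.0471) and without 6T-CEM sh-LDB1 replicate 2 (0.00465) or J.gamma1 sh-NC replicate 2 (0.0364). UHRF1 was called lower in DESeq2 (0.0362), with a replicate block (0.0445) and without 6T-CEM sh-LDB1 replicate 2 (0.0481). RFC3 was called lower with the block, as given above, and without 6T-CEM sh-LDB1 replicate 2 (0.0418) or J.gamma1 sh-LDB1 replicate 1 (0.0444), and LIG1 without 6T-CEM sh-LDB1 replicate 1 (0.0441) or J.gamma1 sh-NC replicate 2 (0.0426).

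**Figure D3:**
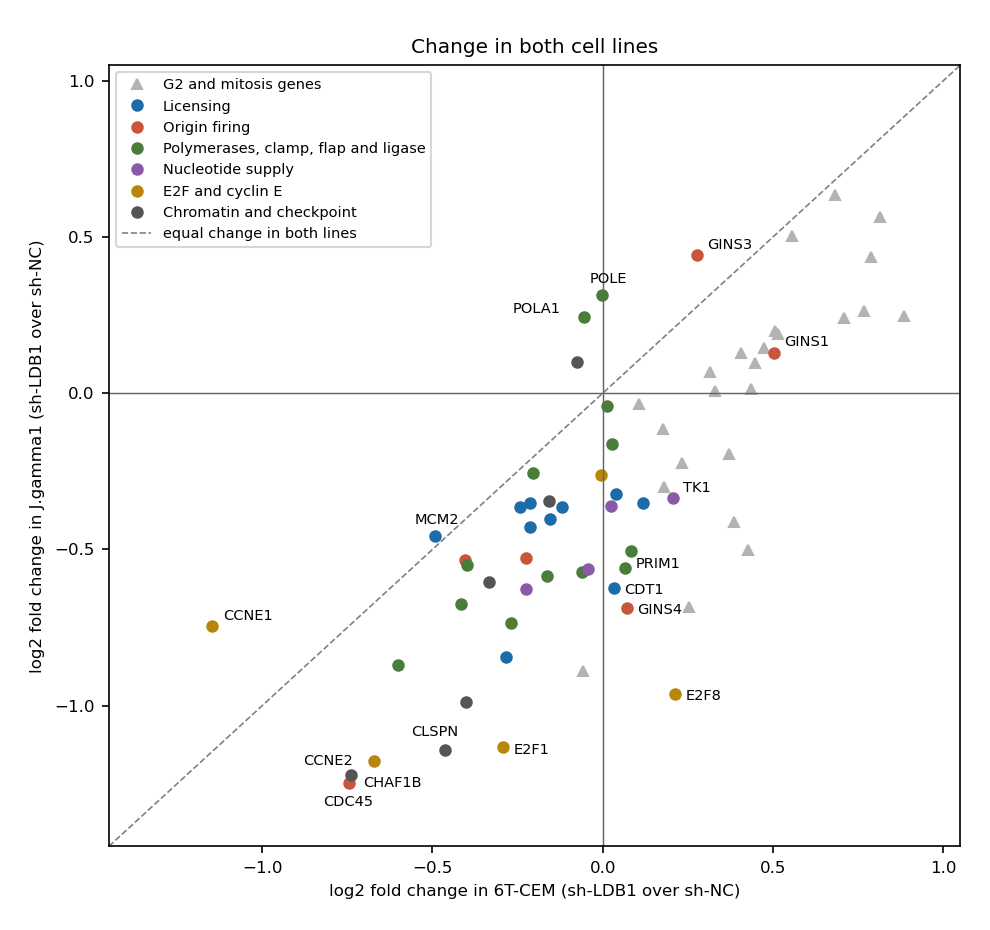
Log2 fold change after LDB1 knockdown in 6T-CEM (x axis) against J.gamma1 (y axis) for the 44 genes, coloured by class, and for 24 genes of G2 and mitosis (grey triangles); the dashed line marks equal change. Most points lie below the dashed line, E2F8 is farthest below it, and most mitosis genes lie right of 0.

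Genes of G2 and mitosis were read in the same libraries, since they follow S phase in the cycle. Of 24 such genes, none was lower and 20 were higher in 6T-CEM (median 0.43), and 6 were lower and 11 higher in J.gamma1 (median 0.08). The 83.3% higher in 6T-CEM stood against 15.1% of all genes, and in J.gamma1 25% were lower and 45.8% higher, against 26.5% and 25% of all genes. Their summed level went from 6600 and 6723 CPM to 8626 and 8906 CPM in 6T-CEM, and from 6811 and 6744 CPM to 6774 and 6603 CPM in J.gamma1. In the interaction test, 21 of the 24 had a lower log2 fold change in J.gamma1 (87.5%, median difference -0.35) and none a higher one. That share was 59.1% among the 44 members and 12.4% over all genes. A lower change in J.gamma1 was thus not particular to the replication genes. PLK1, CDC20 and CCNB1, which drive entry into and exit from mitosis, rose by 0.81, 0.68 and 0.56 on the log2 scale in 6T-CEM and by 0.56, 0.63 and 0.50 in J.gamma1. The part of a shifted cell cycle distribution in the replication gene changes was not tested.

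Beyond the 44, 61 further genes of the same processes were listed, of which 60 were tested. They were 16 lower and 8 higher in 6T-CEM (median -0.08) and 30 lower and 6 higher in J.gamma1 (median -0.21). These are 26.7% lower and 13.3% higher in 6T-CEM, against 16.2% and 15.1% of all genes, and 50% lower and 10% higher in J.gamma1, against 26.5% and 25%. The classes differed. Of the 8 further licensing genes, 12.5% were lower in 6T-CEM and 25% in J.gamma1. Of the 13 further genes of the E2F group, 15.4% and 23.1% were lower, so both classes were under the shares of all genes. In the remaining classes 25% to 50% were lower in 6T-CEM and 50% to 75% in J.gamma1. CDC25A, the phosphatase that activates CDK2 with cyclin E, fell by 0.86 and 1.42 on the log2 scale in 6T-CEM and J.gamma1. RFC1, the large subunit of the clamp loader, fell by 0.55 and 0.68.

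In control cells, most replication genes were at a lower level in J.gamma1 than in 6T-CEM. Between the sh-NC groups, 27 members were lower in J.gamma1, where 31.1% of genes were lower, and 5 were higher (CDT1, RFC4, RRM2, TYMS and E2F8), where 34.6% of genes were higher. The median log2 ratio over the members was -0.27, against 0.05 over all genes. This contrast uses the same sh-NC libraries as the comparisons above and was sensitive to scaling. With total counts alone the split was 22 lower and 9 higher, while the median over all genes shifted from 0.05 to 0.19. Per kilobase of exon, PCNA had the highest level in 6T-CEM controls, at 587 CPM per kilobase, and TYMS in J.gamma1 controls, at 361 CPM per kilobase.

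TK1, POLA1 and ORC1 had the lowest J.gamma1 level relative to 6T-CEM, with log2 ratios of -1.18, -1.10 and -1.08. TK1 stood at 58.2 CPM per kilobase in 6T-CEM and 25.6 in J.gamma1. E2F8 and TYMS were highest relative to 6T-CEM, with log2 ratios of 0.72 and 0.58. E2F8 stood at 11.6 CPM per kilobase in 6T-CEM and 19.0 in J.gamma1. Of the genes that fell most in J.gamma1, CDC45, CHAF1B, CLSPN and CCNE2 had control levels that were not called different between the lines, with log2 ratios of -0.06, -0.06, 0.10 and 0.14, while E2F1 had -0.31. With total counts alone, CLSPN was called higher in J.gamma1 controls (log2 ratio 0.24, edgeR adjusted p = 0.00603).

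**Figure D4:**
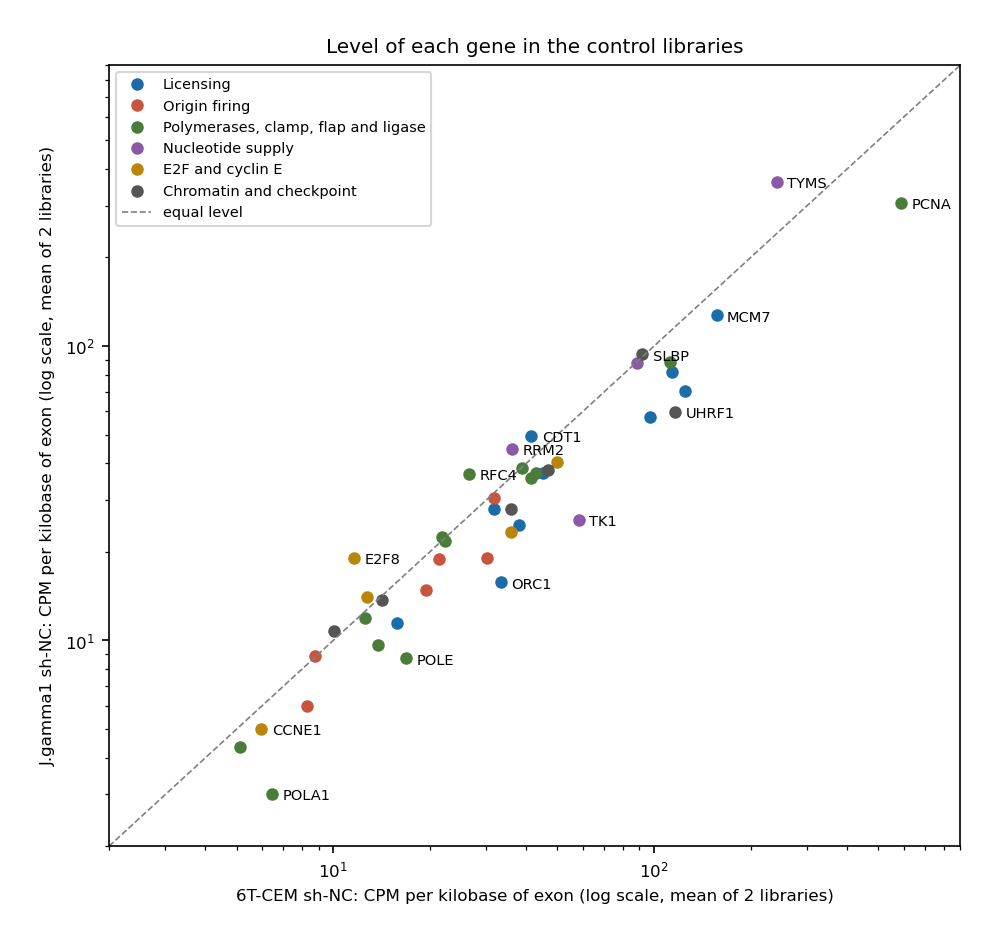
Mean level of the 44 genes in the control libraries of 6T-CEM (x axis) and J.gamma1 (y axis), in CPM per kilobase of exon on log scales, coloured by class, with a dashed line at equal level. Most points lie on or below the line, TK1 and ORC1 are well below it, and E2F8 and TYMS are above it.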

How the data were processed

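RNA of 6T-CEM and J.gamma1 cells was sequenced as 150-base paired reads. Per the labels and the methods of the study, the authors aligned reads with HISAT2 2.2.0 to hg38 and quantified genes with StringTie, and the deposited values are raw read counts per Ensembl gene, 1 table per cell line. The annotation release and the treatment of strand and of reads with several matches are not given in the sources used here. Symbols came from GENCODE through the identifiers, all 44 members matched, and promoters came from RefSeq on GRCh38.p14. The authors' own comparison used DESeq2, with a threshold on fold change as well as on adjusted p. It gave more changed genes in 6T-CEM than in J.gamma1, whereas more genes were called in J.gamma1 here. The reason for this was not tested.

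From the counts, each line was fitted by itself in edgeR 4.0.16 (R 4.3.3) with TMM factors, the default filter on low counts, the robust quasi-likelihood test and p-values adjusted by Benjamini-Hochberg across every gene tested. Both lines were fitted together, over all 8 libraries, for the interaction of cell line and hairpin and for the contrast of the control groups. CPM used TMM-scaled library sizes, and levels per kilobase divided them by the union of exon lengths. Replicates of each group differed by more than counting noise (chi-square per gene 7.04 to 11.7), with a coefficient of biological variation of 9.68% for 6T-CEM and 9.16% for J.gamma1 libraries. The steps were tested on simulated counts, where fold changes came back without bias, a part of the changes of 1 on the log2 scale was missed, and the share of false calls was above the nominal level, so single calls close to the threshold are less certain than their adjusted p states. The simulation changed a far smaller share of genes than was called here, so its shares of missed and false calls need not hold for these data.

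Alternatives were RLE, upper quartile and total-count scaling, no filter and a stricter filter (at least 1 CPM in every library of a group), DESeq2 1.42.0, a fit to all 8 libraries, the replicate number as a block, and each library left out. The members, classes and lists were chosen with earlier results of these data known. Any member may be named, with values in every library for LDB1, for the 2 called members of each class with the largest change in each line and for the 6 called members with the largest difference between the lines. Other genes of the pathway are named where called in both lines with a change of at least 0.5 on the log2 scale in both. One marker of another blood lineage is not reported here. No library was left out, and no column of another sample was present.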

Additional observations from a re-analysis of the deposited data

Results flagged for a closer look

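For 28 of the 44 genes the change after knockdown differed between the lines, by the interaction test over all 8 libraries. It was lower in J.gamma1 for 26 and higher for 2, where 12.4% and 12% of the 18552 genes tested were so. As given above, POLA1, POLE, MCM4, MCM5, MCM10, DTL and E2F2 lost this call when certain single libraries were left out. Values are the log2 fold change in J.gamma1 minus that in 6T-CEM. Among licensing genes it was -0.47 for ORC1, -0.56 for CDC6, -0.66 for CDT1, -0.25 for MCM4, -0.22 for MCM5 and -0.36 for MCM7. Among firing genes it was -0.30 for MCM10, -0.50 for CDC45, -0.37 for GINS1 and -0.76 for GINS4. Among polymerase, clamp and ligation genes it was -0.63 for PRIM1, -0.47 for RFC2, -0.42 for RFC4, -0.51 for RFC5 and -0.59 for FEN1, while POLA1 and POLE had 0.30 and 0.31, the 2 positive values. Among nucleotide supply genes it was -0.52 for RRM1, -0.39 for RRM2, -0.40 for TYMS and -0.54 for TK1. In the E2F group it was -0.84 for E2F1, -0.26 for E2F2 and -1.18 for E2F8. Among chromatin and checkpoint genes it was -0.59 for CHAF1A, -0.48 for CHAF1B, -0.68 for CLSPN and -0.27 for DTL. With groups of 2 libraries, single outlying samples were not looked for.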

How the results depend on the processing

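No member called in a line changed direction under any of the alternatives. The count of members lower in 6T-CEM was 22 and ranged from 14 to 20 with 1 library left out, and the count higher there ranged from 1 to 3 and was 2 with no filter on low counts. The median over the members in 6T-CEM was -0.12 with total counts. In J.gamma1 the count higher was 5 with upper quartile scaling and 5 with total counts, and the median was -0.48 with upper quartile scaling, -0.50 with total counts, -0.52 with the stricter filter, -0.54 in a fit to all 8 libraries and -0.56 to -0.47 with 1 library left out. The count of members with a higher change in J.gamma1 than in 6T-CEM ranged from 0 to 2 with 1 library left out. Between the control groups the count higher in J.gamma1 was 9 with total counts. The cause of these shifts was not tested. DESeq2 gave 22 lower and 3 higher in 6T-CEM and 37 lower and 3 higher in J.gamma1.

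The replicate numbers did not pair the libraries: deviations of same-numbered libraries correlated at -0.053 for 6T-CEM and at -0.094 for J.gamma1 libraries. With a replicate block, 22 members were lower and 4 higher in 6T-CEM, 37 lower and 4 higher in J.gamma1, and 29 lower and 2 higher in the difference between the lines, the added calls being GINS1 in J.gamma1 and the differences of CCNE2, RFC3 and UHRF1. CCNE1, with 188 counts in its lowest library, had an SE of 0.15 in 6T-CEM, against 0.052 for TYMS, with 14347 or more. The shares of counting error and of the spread between 2 libraries in these errors were not separated.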
